A study of Drosophila melanogaster with 20 samples.

Results

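The proteasome subunit genes of Drosophila melanogaster were taken as every gene of the counts table whose symbol begins with Rpn, Rpt, Prosalpha or Prosbeta, which gave 48 of 17807 genes. A number followed by T or R marked 16 of them as testis-type paralogues, and the other 32 were taken as somatic subunits. Symbols, not measured values, chose the genes. The somatic genes comprised 7 alpha and 7 beta subunits of the core particle, 6 Rpt ATPases and 4 non-ATPase subunits of the base, and 8 subunits of the lid.

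The proteasome degrades proteins that carry ubiquitin chains. Its barrel-shaped core particle is built from stacked rings of alpha subunits, which form the gate, and beta subunits, some of which hold the protease active sites. A regulatory particle caps the core: the base unfolds substrates with a ring of Rpt ATPases, and the lid removes the ubiquitin chain before the substrate enters. Drosophila carries extra copies of many subunit genes, several of which are known to be expressed in the male germline.

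Messenger RNA was sequenced from whole bodies of 2-day-old males, 10 flies pooled per library, of 10 inbred lines of the Drosophila Genetic Reference Panel (DGRP). All lines were reared at 25 °C, and each gave 1 heat shock library, from males frozen at the end of a heat shock of 30 minutes (35 ± 1 °C), and 1 library from males that were not heated. The labels class RAL69, RAL93, RAL359, RAL387 and RAL409 as beneficial, and RAL195, RAL304, RAL335, RAL737 and RAL819 as detrimental, by preconditioning outcome in a screen on stress in the endoplasmic reticulum. Within a class the lines differ in genotype and stood as the replicates. The 4 groups were thus beneficial and detrimental lines with heat shock, and beneficial and detrimental lines without it. No agent other than heat was given, and no transgene is named in the labels. Following the study, RAL409 was left out of the tests, which used 4 beneficial and 5 detrimental lines, and its values are given separately. A line's 2 libraries are single pools, so p-values measure the spread between lines. The main heat shock tests did not pair the 2 libraries of a line, so their error also holds each line's own level. A fit with the line as a block was run as an alternative.

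Libraries held 18410625 to 33663046 counts, and 14270 genes entered the heat shock tests, all 48 subunit genes among them. Scaling factors from the trimmed mean of M-values (TMM) lay between 0.867 and 0.982 with heat shock and between 1.04 and 1.11 without, so the treatments did not overlap in them. Levels are given as CPM, read counts scaled to a common library size with the TMM factor, and as CPM per kb of exon where genes are compared with each other. Whole males contain testis, and all 5 defining testis markers were detected, with a summed level of 1591 to 2252 CPM with heat shock and 1690 to 2077 CPM without. The female germline and eggshell list summed to 25.5 to 36.2 CPM with heat shock, against 8.99 to 15.3 CPM without. Of its 15 genes with counts 6 were tested, and 2 eggshell genes were called higher, beside 8.29% of all genes. Of these, Cp18 averaged 17.6 CPM with heat shock and 0.684 CPM without, and Cp19 0.607 and 0.0516 CPM. Yp2, Yp3, Cp15 and bcd were tested and not called. The accessory gland list had 0 of 9 tested genes called. In whole bodies, fewer cells of a type and less RNA per cell cannot be told apart.

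Heat shock left the levels of most subunit genes close to those without it, and a small set within the regulatory particle moved in opposite directions. Rpn6, a scaffold subunit of the lid that also contacts the core particle, was higher with heat shock. Lower with heat shock were Rpn12, a lid subunit, Rpn11, the lid enzyme that cuts off ubiquitin chains, and Rpt5, a base ATPase. Thus 1 of 32 somatic genes was called higher, beside 8.29% of all genes tested, and 3 of 32 lower, beside 9.61%, by edgeR's quasi-likelihood test with an adjusted p below 0.05. In either direction 17.9% of all genes were called. The median log2 change was −0.01 over the somatic genes, −0.01 in the beta ring and 0.01 in the alpha ring, against 0.00 over all genes.

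**Figure D1:**
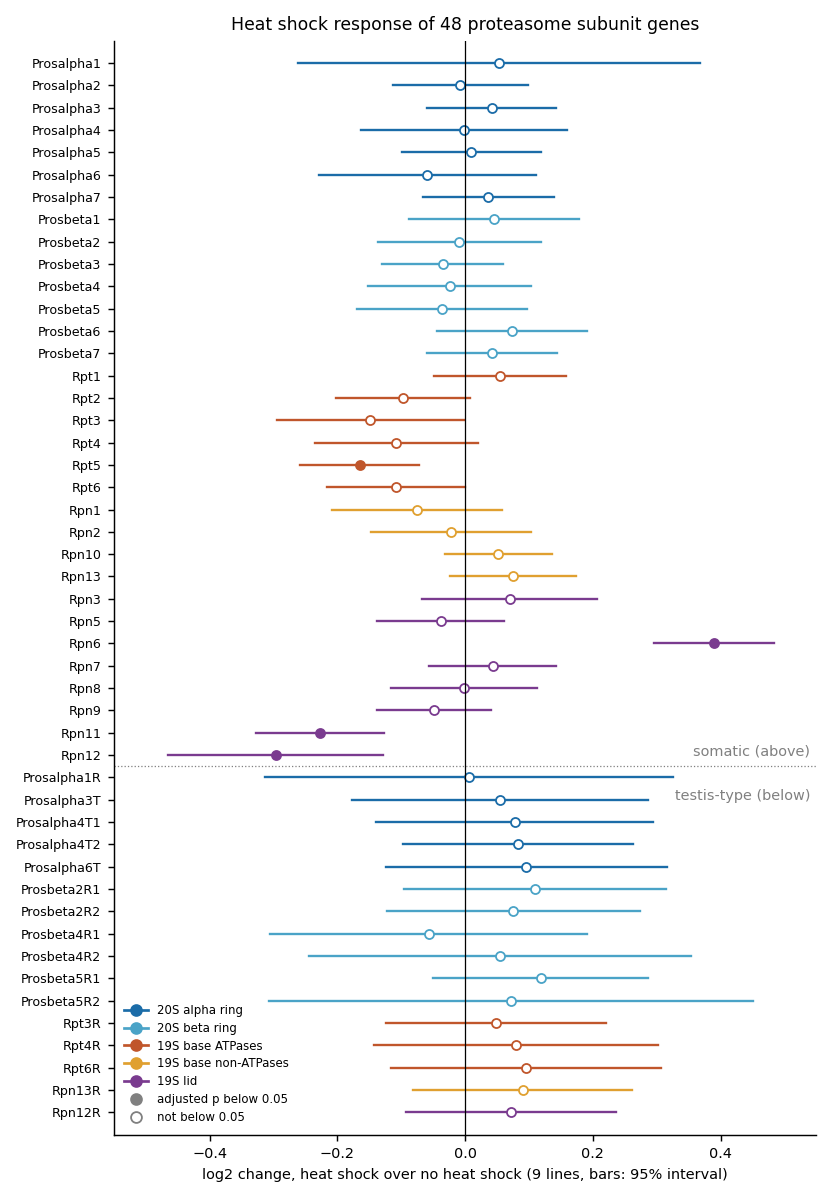
Log2 change with heat shock over without for each of the 48 subunit genes, from 9 lines, with 95% intervals, grouped by role (colour) with somatic genes above and testis-type genes below. Filled points had an adjusted p below 0.05: Rpn6 lies at 0.39, and Rpt5, Rpn11 and Rpn12 lie at −0.17, −0.23 and −0.30.

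Rpn6 (FBgn0028689, chromosome 2R, 14750166 to 14752910, minus strand, BDGP6) ranged from 232 to 281 CPM with heat shock (median 264), against 186 to 212 CPM without (median 199). No line without heat shock reached the lowest line with it, and within each of the 9 lines Rpn6 was higher with heat shock. Of all genes tested, 5.08% had treatments that did not overlap, and 1 of the 48 subunit genes did. The log2 change was 0.39 ± 0.04 (SE, adjusted p = 5.5e-06), and by line it lay between 0.29 in RAL737 and 0.51 in RAL304. RAL409, outside the test, had 254 CPM with heat shock and 211 CPM without, a log2 change of 0.27. On library totals alone the change was 0.19 (adjusted p = 0.0048).

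The same Rpn6 values were also set beside the other lid genes, Rpn11 and Rpn12 among them, so the ratios are not a separate result. Per kb of exon Rpn6 stood at 134 ± 7.13 with heat shock and 102 ± 5.37 without (mean ± SD, n = 9 lines). Its level per kb was 2.60 to 3.03 times the median of the other 7 lid genes with heat shock, and 1.76 to 2.10 times without. The 2 sets of line ratios did not overlap, and the share of other genes with such ratios was not computed.

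Rpn11 (FBgn0028694, chromosome 2L, 5058404 to 5059790, minus strand) ranged from 55.4 to 65.8 CPM with heat shock (median 61.9), against 65.2 to 74.4 CPM without (median 72.6). All 9 lines had the lower value with heat shock, while the ranges of the treatments met at their edge. The log2 change was −0.23 ± 0.05 (SE, adjusted p = 0.0022). By line it ran between −0.42 in RAL737 and −0.08 in RAL335.

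Rpn12 (FBgn0028693, chromosome 3L, 16583028 to 16584022, plus strand), a lid subunit that joins late in lid assembly in yeast, ranged from 27.9 to 43.0 CPM with heat shock (median 36.7), against 38.3 to 50.1 CPM without (median 43.7). Every one of the 9 lines was lower with heat shock, but the treatments overlapped. The log2 change was −0.30 ± 0.08 (SE, adjusted p = 0.014). It spread widely by line, from −0.68 in RAL737 and −0.65 in RAL359 to −0.01 in RAL93. Without both RAL359 and RAL737 it was −0.22 (adjusted p = 0.084).

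Rpt5 (FBgn0028684, chromosome 3R, 23752876 to 23754623, plus strand), an ATPase whose tail helps open the core particle's gate in yeast, ranged from 58.8 to 78.0 CPM with heat shock (median 67.1), against 69.6 to 81.3 CPM without (median 75.9). Again each of the 9 lines was lower with heat shock and the ranges overlapped. The log2 change was −0.17 ± 0.04 (SE, adjusted p = 0.013), and without RAL359 and RAL737 together it was −0.16 (adjusted p = 0.058).

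**Figure D2:**
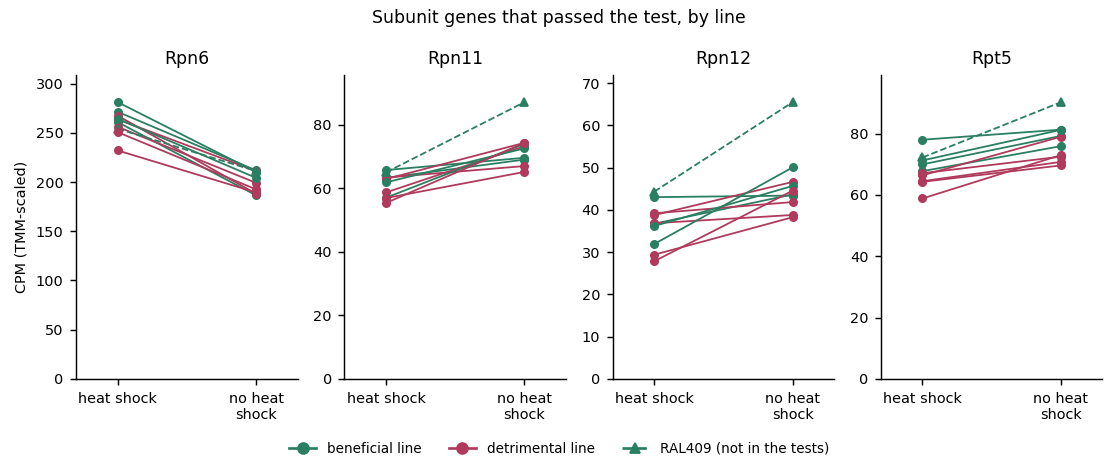
CPM of Rpn6, Rpn11, Rpn12 and Rpt5 with heat shock (left in each panel) and without (right), each line joined by a segment, beneficial lines in green and detrimental lines in red. Rpn6 lies at 232 to 281 CPM with heat shock and 186 to 212 CPM without in the 9 tested lines, and the other 3 genes slope the other way in each of them; RAL409 (dashed) was not tested.

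Moving one way in every line was not rare in these data: 22.1% of all genes tested did so, and 5 of the 48 subunit genes. The fifth was Rpn9, a lid scaffold subunit, lower with heat shock in 9 of 9 lines at −0.05 ± 0.04 (adjusted p = 0.55), close to the size of its error.

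When the libraries were scaled by their totals alone, all genes together shifted by −0.19 in the median, and the somatic subunit genes by −0.21. On that scale 1 of 32 somatic genes was called higher and 26 lower, where 4.88% of all genes were called higher and 29.7% lower. Relative to the shift of all genes, the somatic median was −0.02. The median SE on that scale was 0.052 over the somatic genes and 0.12 over all genes, and its part in the numbers called was not tested. Rpn6 was the gene called higher, and Rpn11 (−0.43), Rpn12 (−0.50) and Rpt5 (−0.36) were among those called lower.

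Of the 3 catalytic beta genes 0 passed the test. Prosbeta1, which carries the caspase-like site, had a log2 change of 0.05 ± 0.06 (adjusted p = 0.76), Prosbeta2, the trypsin-like subunit, −0.01 ± 0.06 (adjusted p = 0.97) and Prosbeta5, the chymotrypsin-like subunit, −0.04 ± 0.06 (adjusted p = 0.82). Their 95% intervals were −0.09 to 0.18, −0.14 to 0.12 and −0.17 to 0.10. Prosbeta5 ranged from 77.5 to 104 CPM with heat shock (median 98.0) and from 85.1 to 110 CPM without (median 99.5), and the other beta genes overlapped as broadly. Across the 14 core genes, log2 changes lay between −0.06 (Prosalpha6) and 0.07 (Prosbeta6), and 0 passed in edgeR, with 0 at an unadjusted p below 0.05 and 0 in DESeq2.

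In the base, 5 of the 6 Rpt ATPases had a negative estimate, with a median of −0.11. Rpt5 passed. Rpt3 (−0.15 ± 0.07, adjusted p = 0.17), Rpt6 (−0.11 ± 0.05, adjusted p = 0.18), Rpt4 (−0.11 ± 0.06, adjusted p = 0.27) and Rpt2 (−0.10 ± 0.05, adjusted p = 0.22) did not, and Rpt1 stood at 0.05 ± 0.05. With the line as a block, which removes each line's own level, Rpt3 also passed (−0.15 ± 0.05, adjusted p = 0.037). That fit called 1 somatic gene higher and 4 lower, beside 16.3% and 18.9% of all genes. The 4 non-ATPase subunits, among them the ubiquitin receptors Rpn10 (0.05 ± 0.04) and Rpn13 (0.07 ± 0.05), had 0 called.

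Levels per kb differed between the parts of the particle. Without heat shock, the 7 alpha genes lay between 49.5 and 118 CPM per kb and the 7 beta genes between 64.2 and 122, with medians of 102 and 103. Base ATPases lay between 41.4 and 66.4 (median 51.2) and lid genes between 43.9 and 102 (median 54.8), the upper end being Rpn6. The highest somatic genes without heat shock were Prosbeta3 (119 ± 8.30 with heat shock and 122 ± 6.57 without), Prosalpha2 (117 ± 9.93 with and 118 ± 5.72 without) and Prosbeta7 (119 ± 7.18 with and 115 ± 8.41 without), each CPM per kb ± SD over 9 lines. These 3 were within 1 SD of one another. With heat shock Rpn6 was the highest, at 134 ± 7.13, and these 3 came next. Prosalpha1 was ranked on its own counts, and its level is uncertain for the reason given below. Summed with Prosalpha1R it stood at 127 with heat shock and 125 without, per kb of the pair's mean exonic length. Rpn1, the large base scaffold (39.1 ± 4.21 with heat shock and 41.2 ± 2.04 without), Rpt3 (37.2 ± 4.36 with and 41.4 ± 2.50 without) and Rpn12 (35.7 ± 4.94 with and 43.9 ± 3.74 without) were the lowest in both treatments, and they too were not apart beyond their spread without heat shock. Core genes were also the shorter ones, with median exonic lengths of 973 bases (alpha) and 944 bases (beta), against 1534 bases for base ATPases and 1605.5 bases for lid genes, and the part of length in these levels was not tested.

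**Figure D3:**
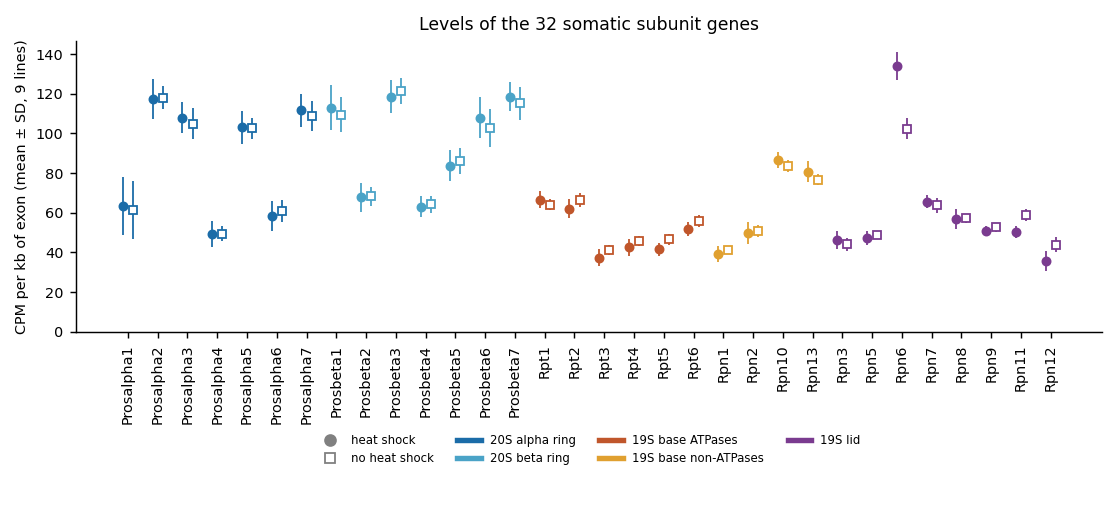
Mean CPM per kb of exon ± SD over 9 lines for the 32 somatic subunit genes, with heat shock (filled circles) left of no heat shock (open squares), coloured by role. Most core genes lie above most regulatory-particle genes, and Rpn6 stands at 134 with heat shock and 102 without.

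Among the alpha genes, Prosalpha1 and Prosalpha1R need to be read together. They lie 1734 bases apart on chromosome 2R, at 7827303 to 7828678 and 7830413 to 7831771 on the minus strand, and Prosalpha1R took 47.9 to 52.2% of the pair's counts in each of the 20 libraries. Reads of near-identical copies may have been divided between them in counting, so each gene's own level is uncertain. Summed, the pair held 122 ± 29.3 CPM with heat shock and 120 ± 27.9 CPM without (SD, n = 9 lines), with a log2 change of 0.03 ± 0.15 (adjusted p = 0.95). The pair was highest in RAL819 (179 CPM with heat shock and 177 CPM without) and lowest in RAL737 with heat shock (85.7 CPM) and in RAL195 without it (97.6 CPM).

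On the mean over lines, the other 15 testis-type paralogues were expressed below their somatic partners with 1 exception. Without heat shock they reached 11.6 to 106% of the partner's level per kb, with a median of 46.0%. Prosalpha3T (11.6% of Prosalpha3) and Prosbeta5R2 (12.3% of Prosbeta5) were lowest. Prosalpha4T2 stood at 81.6% of Prosalpha4 and Prosalpha4T1 at 30.1%. Prosalpha6T, which is needed for male fertility (76.1% of Prosalpha6), and Prosbeta5R1 (71.1% of Prosbeta5) came next in order. Rpt6R (57.4%), Rpt3R (53.9%), Rpt4R (46.5%) and Prosbeta4R2 (46.0%) lay near the middle, and Prosbeta2R2 (30.3%), Prosbeta2R1 (28.0%), Prosbeta4R1 (27.8%) and Rpn13R (26.0%) below it. The exception was Rpn12R, at 138% of Rpn12 with heat shock (109 to 176% by line) and 106% without (85.0 to 118%). With heat shock, single lines of 3 others also exceeded the partner, with ranges of 62.1 to 123% for Prosalpha4T2, 55.6 to 119% for Prosalpha6T and 56.6 to 102% for Prosbeta5R1. Rpn12R itself changed by 0.07 ± 0.08 (adjusted p = 0.66), while Rpn12 was the lower one with heat shock. Prosbeta4R2 shares 69 exonic bases with Or23a on the same strand, so some of its counts may belong to that gene.

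Of the 16 testis-type genes, 0 passed the heat shock test in edgeR, 0 had an unadjusted p below 0.05 and 0 passed in DESeq2. Their median was 0.08 with 15 positive estimates, but −0.12 on library totals, where all genes shifted by −0.19. Without RAL359 the median was 0.05, and with other single lines left out it lay between 0.06 and 0.11. Signs were shared within lines, with 15 of 16 positive in RAL819 and 13 of 16 negative in RAL195. The 5 with the smallest p were Prosbeta5R1 (0.12 ± 0.08), Prosbeta2R1 (0.11 ± 0.10), Rpn13R (0.09 ± 0.08), Prosalpha4T2 (0.08 ± 0.09) and Rpt6R (0.10 ± 0.10), with adjusted p between 0.39 and 0.64. Prosbeta5R1, for example, ranged from 56.1 to 88.9 CPM with heat shock (median 73.6) and from 55.5 to 84.3 CPM without (median 67.5), an almost complete overlap. Within lines, however, it was higher with heat shock in 8 of 9. With the line as a block its edgeR change was 0.12 ± 0.05 (unadjusted p = 0.025, adjusted p = 0.066). In that fit 2 of the 16 had an unadjusted p below 0.05, beside 6387 of all 14270 genes. The list of 34 late-germline and spermatid genes, which marks the tissue, had 0 called and 31 positive estimates, with a median of 0.08. With the line as a block, 8 of the 34 were called higher, beside 16.3% of all genes, among them the tubulin gene betaTub85D (adjusted p = 0.043), while 0 of the 16 paralogues passed. Its summed level was 13452 to 18068 CPM with heat shock and 13709 to 16828 CPM without, and its part in the paralogues' values was not tested.

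Gene structure was not used to choose the genes. With the exons of all annotated isoforms merged, 6 of the 16 testis-type genes had a single exon, as did 4 of the 32 somatic genes. Somatic genes lay on 2L (4), 2R (10), 3L (5), 3R (9) and X (4), and testis-type genes on 2L (4), 2R (3), 3L (2), 3R (5) and X (2). In the median testis-type gene the highest of 9 lines exceeded the lowest 1.53-fold without heat shock, against 1.19-fold in the median somatic gene. Mean levels were 10.8 to 67.4 CPM for testis-type genes and 43.7 to 199 CPM for somatic genes, and the difference in spread was not tested.

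Prosbeta5R2 varied most, 3.09-fold over 10 lines without heat shock, with 27.1 CPM in RAL93 and 8.77 CPM in RAL819. With heat shock the same lines held the ends, at 28.6 and 8.93 CPM. Prosbeta4R1 followed with a 2.03-fold range, at 20.2 CPM in RAL359 and 9.93 CPM in RAL304, and the tandem pair came after it. Prosbeta2, the widest somatic gene outside the pair, ranged 1.75-fold with 110.7 CPM in RAL409 and 63.2 to 80.3 CPM in the other 9 lines.

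Among genes that act with the proteasome, 2 of the 11 regulators and assembly factors tested were higher and 0 lower, beside 8.29% and 9.61% of all genes. These were cnc, the transcription factor related to mammalian NRF proteins that drive proteasome gene expression (222 to 262 CPM with heat shock and 161 to 202 CPM without, 0.35 ± 0.05, adjusted p = 0.00013), and Ubqn, a ubiquilin that shuttles ubiquitinated proteins (234 to 283 CPM and 173 to 213 CPM, 0.35 ± 0.05, adjusted p = 8.7e-05). Neither overlapped between treatments, as was so for 5.08% of all genes tested. Pomp, the core assembly chaperone, stood at −0.08 ± 0.08. On library totals cnc and Ubqn stayed higher, each at 0.15 (adjusted p = 0.033 and 0.021). With the line as a block, PI31, a proteasome regulator, passed as well (adjusted p = 0.035). That made 3 of 11 higher, beside 16.3% of all genes.

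Of 18 genes for ubiquitin and its handling, 4 were higher and 1 lower, beside the same 8.29% and 9.61% of all genes. The polyubiquitin genes Ubi-p5E (1032 to 1571 CPM with heat shock and 567 to 763 CPM without, 0.88 ± 0.09) and Ubi-p63E (3085 to 4392 CPM and 1854 to 3224 CPM, 0.63 ± 0.11) had adjusted p of 8.0e-07 and 0.00028. The ubiquitin ligases hyd (0.55 ± 0.06, adjusted p = 3.2e-06) and Nedd4 (0.27 ± 0.06, adjusted p = 0.0034) were higher, and Usp5, which takes apart free chains, was lower (−0.21 ± 0.07, adjusted p = 0.035). Ubiquitin fused to ribosomal proteins changed by 0.06 ± 0.09 (RpS27A) and 0.07 ± 0.09 (RpL40), and neither passed. TER94, the p97 segregase that pulls substrates out of complexes, was the only one of 7 in its list to pass without the line as a block, at 0.17 ± 0.05 (adjusted p = 0.025). On library totals neither Nedd4 (0.08, adjusted p = 0.39) nor TER94 (−0.03, adjusted p = 0.74) passed, hyd stood at 0.36, and Usp5 (−0.41) and CSN6 (−0.43) were lower. Of the COP9 signalosome, a complex built like the lid, 1 of 9 genes passed, CSN6 at −0.23 ± 0.06 (adjusted p = 0.0091). Both lists were called no more often than all genes, 17.9% of which passed in either direction. With the block, 3 of 7 genes of the TER94 list passed, beside 35.3% of all genes in either direction. Added were Plap (adjusted p = 0.025), which was higher, and casp (adjusted p = 0.037), which was lower. Of the COP9 genes 4 of 9 were lower, beside 18.9% of all genes, with CSN4, CSN8 and CSN1b added. List medians were 0.04, 0.06, 0.06 and −0.06 for the regulators, ubiquitin handling, the TER94 list and COP9, in this order, against 0.00 over all genes.

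The response of the core genes shared a sign within several lines. In RAL69 and RAL93, 0 of the 14 core genes were negative, with line medians of 0.10 and 0.13. In RAL335, 13 of 14 were positive (median 0.12). In RAL737, 14 of 14 were negative (median −0.19), and in RAL359, 13 of 14 (median −0.19). RAL409 had 14 of 14 negative, with a median of −0.26. The other 4 lines, RAL195, RAL304, RAL387 and RAL819, had 7 to 11 positive. RAL359 and RAL409 were also the lines in which a gene's response rose with its exonic length over all genes tested, by 0.13 and 0.21 per doubling of length, against −0.03 to 0.04 in the other 8 lines. Genes of 800 to 1300 exonic bases, the range of the core genes, had a median response of −0.12 in RAL359 and −0.25 in RAL409, against −0.06 to 0.04 elsewhere, and the part of length in the subunits' values was not tested. RAL737 had a slope of 0.04, and its heat shock library was the smallest of the series at 18410625 counts.

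**Figure D4:**
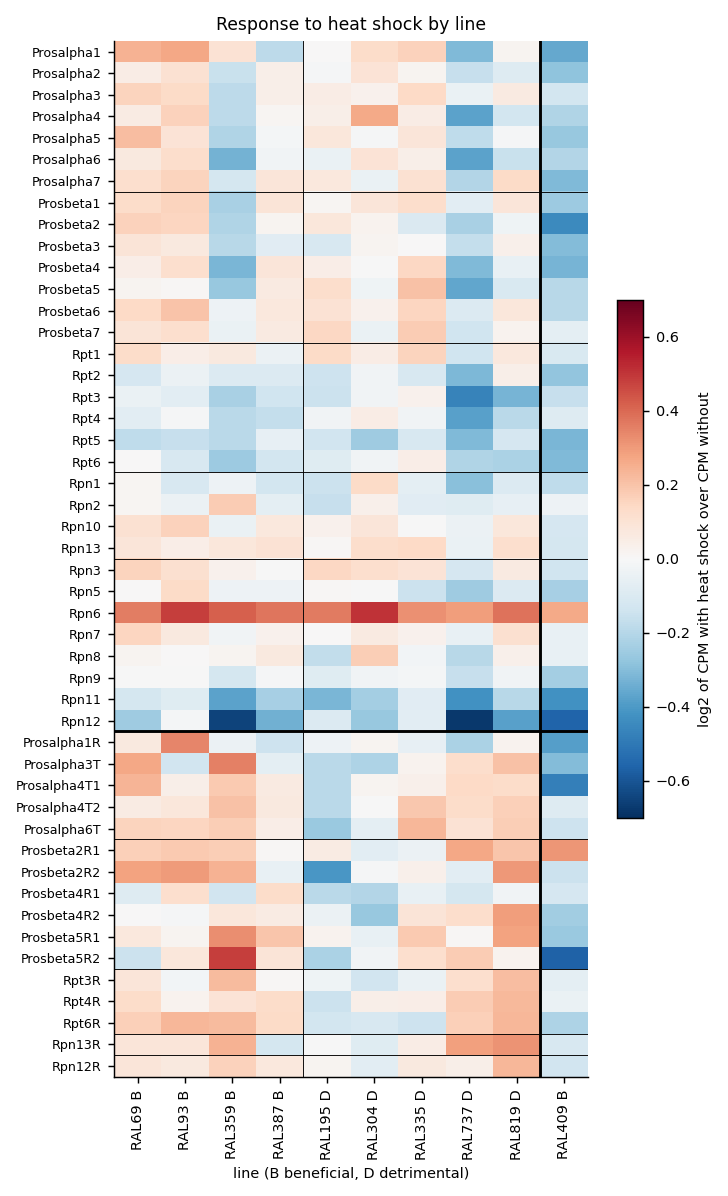
Log2 of CPM with heat shock over CPM without, by gene (rows, grouped by role, somatic above the thick line) and line (columns: beneficial, detrimental, then RAL409 beyond the thick line). Rpn6 is positive in every column, and the core genes are negative throughout RAL737 and RAL409 and positive throughout RAL69 and RAL93.

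Between classes of lines, the heat shock response did not separate detectably. Rpn6 had a log2 change of 0.41 ± 0.07 in beneficial lines (adjusted p = 0.00062) and 0.37 ± 0.06 in detrimental lines (adjusted p = 0.00039). In beneficial lines alone 1 of 32 somatic genes was called higher and 0 lower, beside 4.27% and 3.36% of all genes. With DESeq2, or with RAL409 included, 1 was called lower, Rpn11. In detrimental lines 1 was called higher, beside 5.34%, and 1 lower, Rpn11 (−0.25 ± 0.06, adjusted p = 0.015), beside 4.63%. Without RAL195 or without RAL737 the count lower was 0. The difference between the responses was tested directly: 0 of 48 passed in edgeR, with 0 at an unadjusted p below 0.05 and 0 in DESeq2, and 0% of all genes were called. The smallest p belonged to Rpn5, a lid subunit (0.11, 95% interval −0.09 to 0.31), Prosbeta2R2 (0.21, −0.19 to 0.60) and Rpt6R (0.18, −0.24 to 0.60). For the somatic genes the median half-width of the 95% interval of this difference was 0.22, and for the testis-type genes 0.43. This edgeR test did not pair a line's 2 libraries, and 42 of 14270 genes had an unadjusted p below 0.05. With the line as a block the half-widths were 0.19 and 0.22, and 338 genes had an unadjusted p below 0.05. In that fit 0 somatic and 0 testis-type genes passed, with 0 at an unadjusted p below 0.05.

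Beneficial lines without heat shock had somatic subunit levels close to those of detrimental lines. Summed over the 32 genes, 4 beneficial lines held 2985 to 3223 CPM and 5 detrimental lines 2892 to 3113 CPM. The median log2 difference was 0.06, with 29 of 32 positive, against 0.00 over all genes with 6770 of 13770 positive. It lay between 0.04 (without RAL819) and 0.09 (without RAL93) with single lines left out. RAL819 alone was the lowest of 10 lines in 16 of 32 genes, so the signs are not independent. The call count was 0 of 48 by edgeR, with 0 at an unadjusted p below 0.05, and 0 by DESeq2. Over all genes 0% passed in edgeR, with 576 at an unadjusted p below 0.05, and 22 passed in DESeq2. Prosbeta5R2 (0.47, 95% interval −0.06 to 1.00), Prosalpha3 (0.14, −0.02 to 0.30) and Rpt5 (0.12, −0.02 to 0.27) had the smallest p, each with an adjusted p of 0.999.

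With heat shock the 32 somatic estimates were all positive, with a median of 0.09, against 0.00 over all genes with 6819 of 13877 positive. Without RAL737 the somatic median was 0.05, and with other single lines left out it lay between 0.08 and 0.13. The summed levels were 3084 to 3258 CPM in 4 beneficial lines and 2730 to 3249 CPM in 5 detrimental lines, which overlapped. As a share of raw counts the sums were 0.293 to 0.317% in beneficial lines and 0.262 to 0.282% in detrimental lines, which did not. Raw shares leave out the TMM factors, and RAL304, the detrimental line at 3249 CPM, had a factor of 0.867. On library totals all genes differed by 0.04 in the median, beneficial over detrimental. How many other genes separate the classes on raw counts was not computed. Again 0 of 48 passed, by edgeR and by DESeq2, with 1 at an unadjusted p below 0.05 in edgeR and 2 in DESeq2, and 0% of all genes passed in edgeR, with 611 at an unadjusted p below 0.05, and 12 in DESeq2. The class comparisons with and without heat shock used the same lines. Subunit genes moved together within lines, as in RAL737, where 31 of 32 somatic responses were negative. The 32 signs are thus not independent.

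Prosbeta5R2 had the smallest p with heat shock. It stood at 16.1, 28.6, 25.8 and 14.5 CPM in RAL69, RAL93, RAL359 and RAL387, against 16.4, 12.9, 15.0, 16.2 and 8.93 CPM in RAL195, RAL304, RAL335, RAL737 and RAL819. RAL93 and RAL359 stood above every detrimental line and the classes overlapped otherwise, so that the difference was 0.61 ± 0.24 (unadjusted p = 0.029, adjusted p = 0.999). In the authors' deposited table it was 0.61 with an adjusted p of 0.76. Prosbeta6 (0.19, 95% interval −0.0015 to 0.38) and Prosbeta5R1 (0.24, −0.01 to 0.48) followed. Rpt5 was the 1 subunit gene of 48 whose classes did not overlap with heat shock, at 67.7 to 78.0 CPM in beneficial lines and 58.8 to 67.1 CPM in detrimental lines. Of all genes 1.42% had classes that did not overlap with heat shock, and 1.28% without it, where 0 of the 48 did. The authors' deposited tables, made without RAL409 as their names and the study state, gave 0 of 48 subunit genes an adjusted p below 0.05 in either treatment, with smallest values of 0.76 with heat shock and 1.00 without.

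RAL409, the line the study set aside, stood apart in these genes without heat shock. Its 32 somatic genes summed to 3308 CPM with heat shock and 3738 CPM without, where the other 9 lines held 2730 to 3258 CPM and 2892 to 3223 CPM. Without heat shock it exceeded all 9 other lines in 26 of 32 somatic genes (81.2%), as it did in 20.3% of all genes tested. All 7 beta genes and all 6 base ATPases were among them, with median ratios to the middle of the other lines of 1.40 and 1.24. Prosbeta2 (110.7 against a median of 69.7 CPM) and Rpn12 (65.5 against 43.7 CPM) were the farthest. Prosalpha1, Rpn1, Rpn2, Rpn6, Rpn7 and Rpn8 were the 6 within the range of the others. With heat shock 11 of 32 exceeded all other lines, as did 12.3% of all genes, and the median ratio was 1.08. Of the 16 testis-type genes it exceeded all others in 0, with or without heat shock, and it was below all others in 2 in each treatment, Prosbeta2R2 and Rpn12R with heat shock and Prosbeta2R1 and Prosbeta2R2 without, as it was in 12.2% of all genes with heat shock and 20.6% without. RAL409 is 1 line with 1 library per treatment, so no error can be attached to these ratios. Responses in RAL409 rose with exonic length over all genes tested (0.21 per doubling). The part of length in these ratios was not tested.

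**Figure D5:**
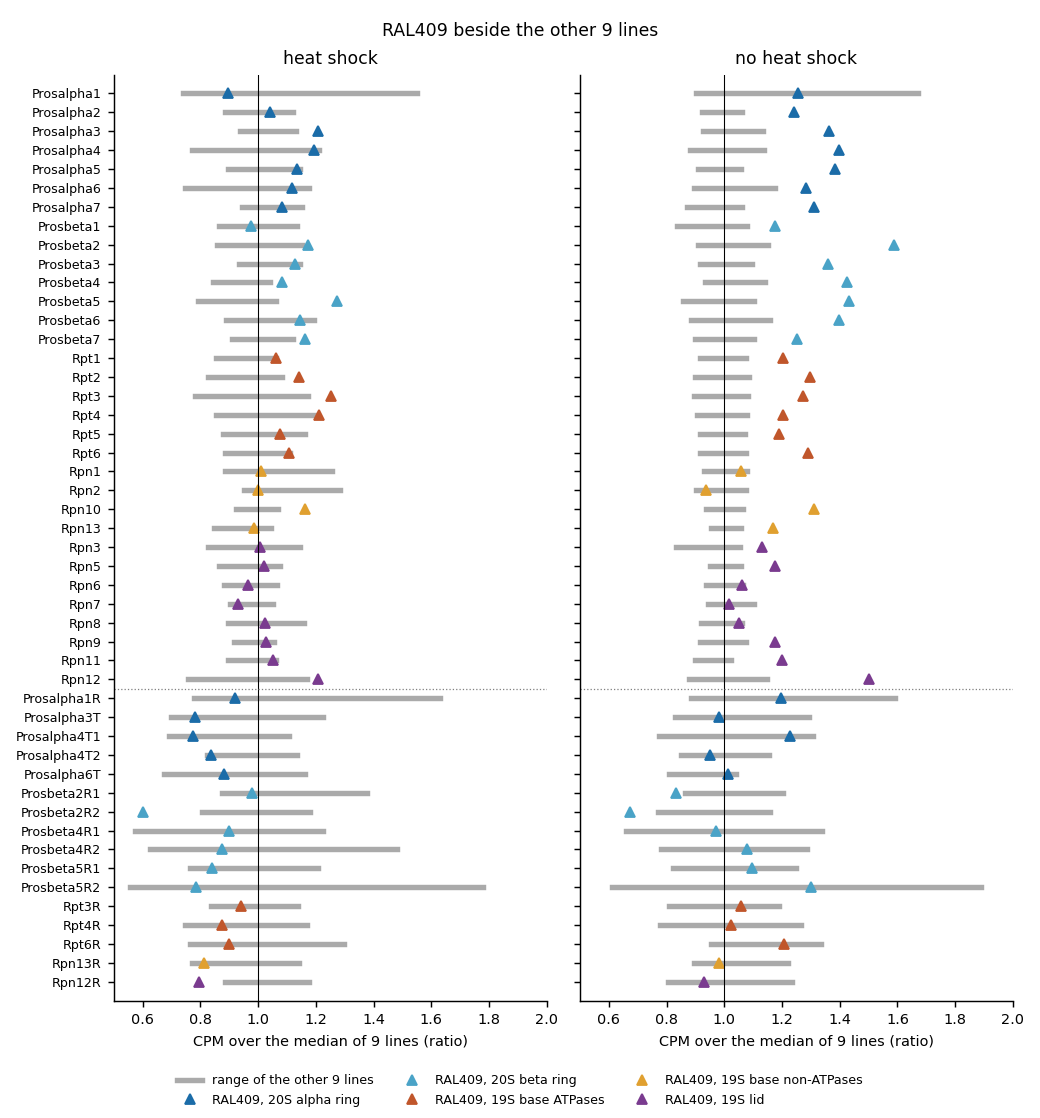
CPM in RAL409 (triangles, coloured by role) relative to the median of the other 9 lines, with the range of those lines in grey, for heat shock (left) and no heat shock (right). Without heat shock 26 of 32 somatic triangles lie right of the grey range, and with heat shock 11 do; none of the 16 testis-type triangles does in either.

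The low end of the 10 lines was held most often by a pair of detrimental lines. RAL737 was lowest in 22 of 32 somatic genes with heat shock, with a sum of 2730 CPM, and in 1 without it. RAL819 was lowest in 16 of 32 without heat shock, with a sum of 2892 CPM, and in 5 with it. Prosalpha1 ran the other way in RAL819, where it was the highest of all lines in both treatments. The heat shock library of RAL737 was the smallest, at 18410625 counts. How often each line was lowest over all genes was not computed, so these counts cannot be called particular to the subunits.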

How the data were processed

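The authors deposited a table of read counts per gene for 20 libraries, made with a stranded mRNA kit per the labels' protocols. The build BDGP6 and the tools Bowtie2 2.2.9, SAMtools 1.12 and DESeq2 1.28.1 are named per the submitters' processing notes, with no role given. The counting tool and its use of strand are not given in the sources used here, so 13 somatic and 2 testis-type genes that overlap a gene on the other strand could hold some of its reads. The authors also deposited 2 class comparisons, with the mean normalized signal, log2 fold changes and their errors, a test score and p-values per the file headers. Of these, fold changes and p-values were used.

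From the counts, CPM on TMM-scaled library sizes and edgeR 4.0.16 quasi-likelihood tests (R 4.3.3, limma 3.58.1) were computed, after edgeR's filter on low counts by group. P-values were adjusted by Benjamini-Hochberg across the whole table, and 0.05 was the threshold. Heat shock tests used 18 libraries in 1 fit of 4 groups, with both classes weighted equally, and class tests used the 9 libraries of a treatment. Exonic lengths and positions came from the Ensembl release 115 annotation of BDGP6, which matched 17710 of 17807 rows. The fits were tested on simulated data. The simulated counts held no line effects, so that test does not bear on the pairing of libraries by line.

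Alternatives were DESeq2 1.42.0, other scaling, no filter, RAL409 included, each line left out and the line as a block. Leaving out RAL359 with RAL737 and summing the Prosalpha1 pair were chosen after seeing the data. Replicate names are inbred lines, so the 2 libraries of a line pair by genotype. Deviations from group means correlated at 0.55 to 0.80 within each of 9 lines and at most 0.12 between lines.

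The members and gene lists were chosen with earlier results of these data known. Named genes were the called somatic genes, up to 5 per direction, the 5 testis-type genes of smallest p, the 3 of smallest p per class comparison, the 5 of widest range over lines, the 3 highest and 3 lowest per kb, paralogues beside their partners, the catalytic beta subunits and Rpn11, and called genes of related lists. Others are given to complete a group and were chosen after their values were seen.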

Additional observations from a re-analysis of the deposited data

Results flagged for a closer look

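Sets of 5 lines were examined, each a named gene or a sum in 1 class and treatment. Of 88 sets, 6 held a line far from the other 4. For sets not chosen by their spread, chance alone flags about 1 in 20. The tandem pair and Prosbeta2 were named for their wide range over these lines, so that rate does not apply here. In the tandem pair the line was RAL819 each time. Prosalpha1R had 89.952 CPM in RAL819 with heat shock, where the other detrimental lines held 43.0 to 55.2 CPM, and 88.279 CPM without, where they held 49.1 to 54.5 CPM. Prosalpha1 had 88.36 CPM in RAL819 without heat shock, against 47.6 to 52.9 CPM in the other detrimental lines. The pair's counts were nearly equal in each library, so these values are not independent.

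RAL409 was the distant line in 2 sets without heat shock: Prosbeta2 had 110.65 CPM there, against 68.2 to 80.3 CPM in the other beneficial lines, and Rpn11 had 87.161 CPM, against 69.1 to 74.0 CPM. Rpn13R was low in RAL304 with heat shock, at 18.144 CPM against 23.2 to 24.5 CPM in the other detrimental lines.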

How the results depend on the processing

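Of the alternatives computed, 569 summary values kept their reading and 19 moved. Library totals alone shifted all genes by −0.19 and moved most: over 9 lines 26 somatic genes were called lower and the medians were −0.21 (somatic) and −0.12 (testis-type). In beneficial lines 8 were called lower, with medians of −0.16 and −0.068. In detrimental lines 22 were called lower and 0 higher, with medians of −0.25 and −0.18. On that scale Prosbeta5R1 (−0.075), Prosbeta2R1 (−0.086), Rpn13R (−0.11), Prosalpha4T2 (−0.11), Rpt6R (−0.10) and Prosbeta1 (−0.15) changed sign.

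DESeq2 called 1 somatic gene lower in beneficial lines and 2 in detrimental lines. With RAL409 included, 1 was called lower in beneficial lines, and the class median without heat shock was 0.12. With the line as a replicate block, 3 were called lower in detrimental lines, and over 9 lines 1 higher and 4 lower; 5032 genes were called in all, against 2555 without the block. Leaving out 1 line gave 0 to 1 called lower in detrimental lines (0 without RAL195 or RAL737), and log2 changes of −0.032 to 0.013 for Prosbeta2 and −0.064 to 0.0020 for Prosbeta5. Without RAL359 and RAL737 together, 1 somatic gene was called lower over the remaining lines of both classes and 0 in detrimental lines, and Prosbeta2 (0.034) and Prosbeta5 (0.019) changed sign. Where not given, the cause was not tested. In each of these, over both classes, 1 somatic gene was called higher.

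In the heat shock test the median 95% half-width was 0.11 (log2) for somatic and 0.21 for testis-type genes, and 0.094 and 0.11 with the line as a block. The part of depth, 18410625 to 33663046 counts, in these widths was not tested.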
